A study of Mus musculus with 9 samples.

Results

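The genes described here encode the nuclear subunits of the oxidative phosphorylation complexes, together with the Ndufaf assembly factors of complex I, in the kidney cortex of fasted and fed mice. They were taken by name from the deposited table. Every symbol that begins with Atp5, Cox4 to Cox8, Nduf or Uqcr was kept, as were Cyc1 and Sdha to Sdhd, and 0 of these names held -ps, which would have been left out. The rule gave 93 of the 23420 genes listed. They comprise 7 core and 29 accessory subunits of complex I, 7 Ndufaf assembly factors, 4 subunits of complex II, 9 of complex III, 20 of complex IV and 17 of complex V. Ndufa4 and Ndufa4l2 were counted with complex IV, since Ndufa4 is known as a subunit of cytochrome c oxidase. The name rule also brings in Atp5s and Atp5sl, whose symbols recall ATP synthase although neither is a classical subunit of it. Of the 93 genes, 89 averaged 10 normalized counts or more over the 9 libraries and were tested. The other 4 were Cox7b2, Cox8b, Cox8c and Ndufs5.

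The fasted group was 4 male C57/BL6 mice that had no food for 16 h before they were killed, and the fed group was 5 male C57/BL6 mice that ate freely. Both groups were on chow and a light and dark cycle with 12 h of light, and their age is not given in the sources used here. RNA was taken from a piece of kidney cortex of about 50 mg, and each library was sequenced as TruSeq RNA. The comparison asks how the transcripts differ between the fasted and the fed state. The labels number the libraries singly and do not speak of pooling. If they were not separate mice, the p-values would measure only the spread between these samples.

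Oxidative phosphorylation takes place in the inner mitochondrial membrane. Complexes I and II pass electrons from NADH and succinate to coenzyme Q, complex III passes them to cytochrome c and complex IV to oxygen, and complex V (ATP synthase) makes ATP from the proton gradient that results. Most subunits come from the nuclear genome and the rest from mitochondrial DNA, and assembly factors help to build the complexes without being part of them. In the kidney cortex the cells of the proximal tubule are among those rich in mitochondria, and they burn mainly fatty acids and other non-glucose fuels to power reabsorption.

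Each library held between 18902645 and 32469467 recovered reads, and the ribosomal RNA entry Rn45s took 5.54% of them in Fed 3, 2.36% in Fasted 1 and between 0.513% and 1.38% in the other 7. The labelled tissue showed its defining markers: the 11 proximal tubule markers summed to between 548700 and 621080 normalized counts in fasted libraries and between 561130 and 771660 in fed libraries. Fed 5 stood apart from the other fed libraries, with 15244 normalized counts of Cyp4a14, a fatty acid hydroxylase gene, against 46981 to 76259 in the fasted libraries and at most 1379 in the other fed ones. Its proximal tubule sum was the lowest of the fed group. Medians, sums and calls that moved with Fed 5 are therefore also given without it. This choice was made from these same data, so the fits without Fed 5 are a description and not a separate test. In Cyp4a14 it was the fed library nearest to the fasted ones, and leaving out such a library tends to widen differences between the groups. The 13 subunits encoded by mitochondrial DNA were not analysed here.

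Most oxidative phosphorylation transcripts differed little between the groups. Cox6b2, an isoform of a complex IV subunit that is best known from testis, was higher in fasted kidneys. Cox7a1 and Cox5a of complex IV, Uqcrq of complex III and Ndufa8 of complex I were lower. The remaining 84 of the 89 genes tested did not pass an adjusted p of 0.05 (limma on log2(normalized count + 1), fasted over fed, Benjamini-Hochberg adjusted over all 15098 genes tested). So 1 member of 89 was called higher, while 5.72% of all genes tested were called higher. The 4 called lower stand against 5.25% of all genes tested. In bulk tissue such as this, fewer cells of a type and less RNA per cell cannot be told apart. These counts moved with the libraries included. Members called lower numbered 0 without Fasted 3, Fasted 4 or Fed 1, where the whole table had 1062, 861 and 1006 genes called in either direction, against 1656 with all libraries. They numbered 1 without Fasted 1, Fed 2, Fed 3 or Fed 4 (1082, 1157, 1595 and 1474 genes called) and 5 without Fasted 2 (1188). Without Fed 5 they numbered 18, and 6.83% of all genes tested were called lower then (1956 genes called in either direction). The count higher was 2 without Fed 3 and 1 without any other single library.

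Most members had slightly lower values in fasted kidneys without passing the threshold. The log2 change was below 0 in 65 of 89 members (73.0%), against 49.8% of all genes tested. The median over the members was -0.091, which is a fold of 0.939, beside a median over all genes of 0.00089. An unadjusted p under 0.05 was found for 17 members with lower values, where 13.3% of all genes tested had one, and for 2 members with higher values, where 13.5% of all genes had one. Changes larger than 0.5 on the log2 scale were seen in 3 members, Cox6b2, Cox7a1 and Cox6a2, against 10.6% of all genes. Every fasted library lay above every fed library in 1 member (7.62% of all genes) and below every fed library in 4 members (6.64% of all genes), Ndufaf4, Ndufaf5, Ndufab1 and Atp5j.

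**Figure D1:**
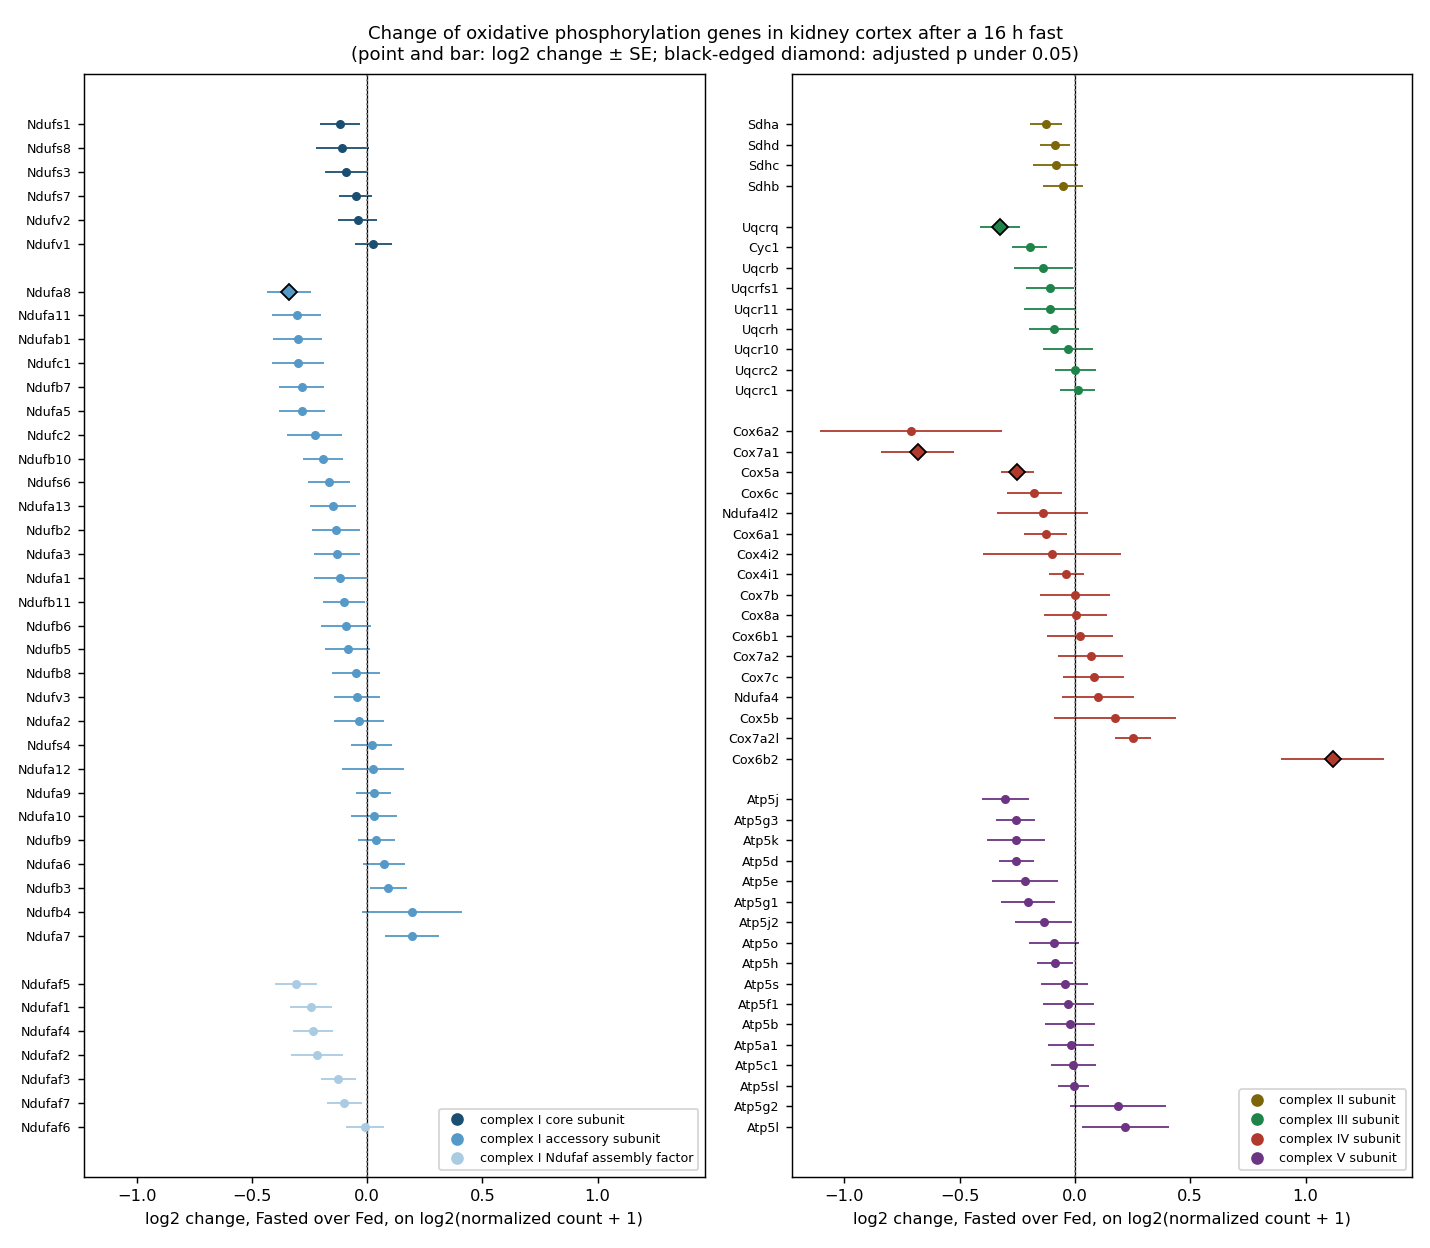
Log2 change, fasted over fed, with its standard error for 88 of the members tested, grouped by complex and role and sorted within each group. Black-edged diamonds mark the 5 called genes, of which Cox6b2 lies at 1.12 and the others between -0.68 and -0.25; all 7 Ndufaf points lie below 0.

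The DNA just upstream of the called genes is shown because factors that drive respiratory genes act there. RefSeq promoters (GRCm38.p6) were found for 76 of the 93 members, 82 promoters in all, and for 4 of the 5 called genes. Letters known for 6 factors or elements were searched on both strands in the 250 bases before the start. GCGCATGCG, the core of the NRF1 motif, was in 8.54% of the members' promoters and in 1.93% of 21263 promoters of protein-coding genes. CCGGAAG, the ETS motif that GABP reads, was in 15.9% of the members' and 8.98% of all these promoters. The same pair of shares was 1.22% and 0.32% for TCAAGGTCA of the ERR receptors, 2.44% and 1.5% for AAGATGGC of YY1, 36.6% and 42.6% for GGGCGG of SP1, and 8.54% and 11.6% for TATAAA. The 7 members with the NRF1 letters were Atp5g2, Atp5k, Atp5l, Cox6a1, Ndufa11, Ndufa8 and Ndufaf4, and the ERR letters were found for Atp5g3. A match is a description and not a shown binding site. The following are the bases nearest to the start that lie in no annotated exon, 5′ to 3′ on the gene's strand, with the letters of these motifs in capitals.
Cox6b2: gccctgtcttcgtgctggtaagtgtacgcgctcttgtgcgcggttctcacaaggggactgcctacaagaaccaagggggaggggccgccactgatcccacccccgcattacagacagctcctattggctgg
Cox7a1: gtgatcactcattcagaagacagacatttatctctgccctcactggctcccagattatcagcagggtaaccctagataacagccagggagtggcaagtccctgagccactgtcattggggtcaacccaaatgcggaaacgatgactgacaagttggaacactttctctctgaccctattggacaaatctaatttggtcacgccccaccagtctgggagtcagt
Cox5a: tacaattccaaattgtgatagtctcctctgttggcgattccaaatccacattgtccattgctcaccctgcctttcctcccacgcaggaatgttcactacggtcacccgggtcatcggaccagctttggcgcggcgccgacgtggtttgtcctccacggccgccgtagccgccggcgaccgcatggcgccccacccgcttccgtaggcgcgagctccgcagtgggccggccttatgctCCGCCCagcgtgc
Ndufa8: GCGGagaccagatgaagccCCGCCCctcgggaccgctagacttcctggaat
They lie at chr7:4753095-4753225 (minus strand, 131 bases) for Cox6b2, chr7:30183921-30184143 (plus strand, 223 bases) for Cox7a1, chr9:57520982-57521231 (plus strand, 250 bases) for Cox5a and chr2:36049407-36049457 (minus strand, 51 bases) for Ndufa8. The stretch of Cox6b2 is the gap between it and Fam71e2, and that of Ndufa8 is the gap between it and the divergent gene Morn5, which had at most 5.75 normalized counts in any library. Cox5a has the SP1 letters on the reverse strand, and those of Cox6b2 lie in the part of its 250 bases that is not shown. In Ndufa8 the SP1 letters stand near the middle, the opening capitals are the end of another match, and its NRF1 letters lie nearer to the RefSeq start, inside the exon that the annotation gives. In Cox7a1, whose level fell in fasted kidneys, none of the 6 letter strings was found in the 250 bases.

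Levels of different genes were compared per kilobase of transcript, as normalized counts divided by the length of the longest principal transcript. The catalytic core of ATP synthase led. Atp5b, the beta subunit that carries the catalytic sites, reached 37795 ± 1049 in fasted and 38578 ± 4546 in fed kidneys (normalized counts per kilobase, SD, n = 4 fasted and 5 fed). Atp5a1, the alpha subunit, reached 21992 ± 715 in fasted and 22376 ± 2406 in fed kidneys. In complex IV the order by the mean of all 9 libraries was Cox4i1 (17266), Cox8a (15666), Ndufa4 (11937) and Cox6a1 (10961). In fed kidneys Cox4i1 (17484 ± 1498) and Cox8a (15779 ± 3246) differed by less than the SD of Cox8a, whereas Ndufa4 (11692 ± 2752) lay below Cox8a by more than either SD (n = 5). The fasted mice varied less, with Cox8a at 15525 ± 578 and Ndufa4 at 12243 ± 465 (n = 4).

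Among the core subunits of complex I, Ndufv1 reached 4990.0 normalized counts per kilobase over the 9 libraries and Ndufs1 2926, and the highest accessory subunits were Ndufb9 (8300.2) and Ndufb8 (8137). Complex II was led by Sdha, its flavoprotein, at 7004, and complex III by the small subunits Uqcr10 (8528) and Uqcrh (8515). The 7 Ndufaf assembly factors lay below every core subunit of complex I, the lowest of which was Ndufs3 at 865, and ranged between 291 for Ndufaf5 and 485 for Ndufaf6. The median level per kilobase was 335 for the Ndufaf genes, against 2454 for complex I core and 2616 for complex I accessory subunits. Several levels depend on how reads were assigned, because 21 of the tested members share over 20% of their principal transcript with a transcript of another annotated gene (at least 97% identity over 100 bases or more). Such a match can be a separate copy or a gene that overlaps the same locus. In Cox5a 42.0% had a match and 41.7% lay in exons of an overlapping gene, and in Cox4i1 both shares were 20.1%. Among the 21 were also Atp5g2 (88.2% of the transcript), Atp5l (72.2%) and Cox7c (58.3%). The untested Ndufs5 shares 46.9% and had 3 reads in the 9 libraries together. These levels are uncertain for that reason, and the part of the copies and overlapping genes was not tested.

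**Figure D2:**
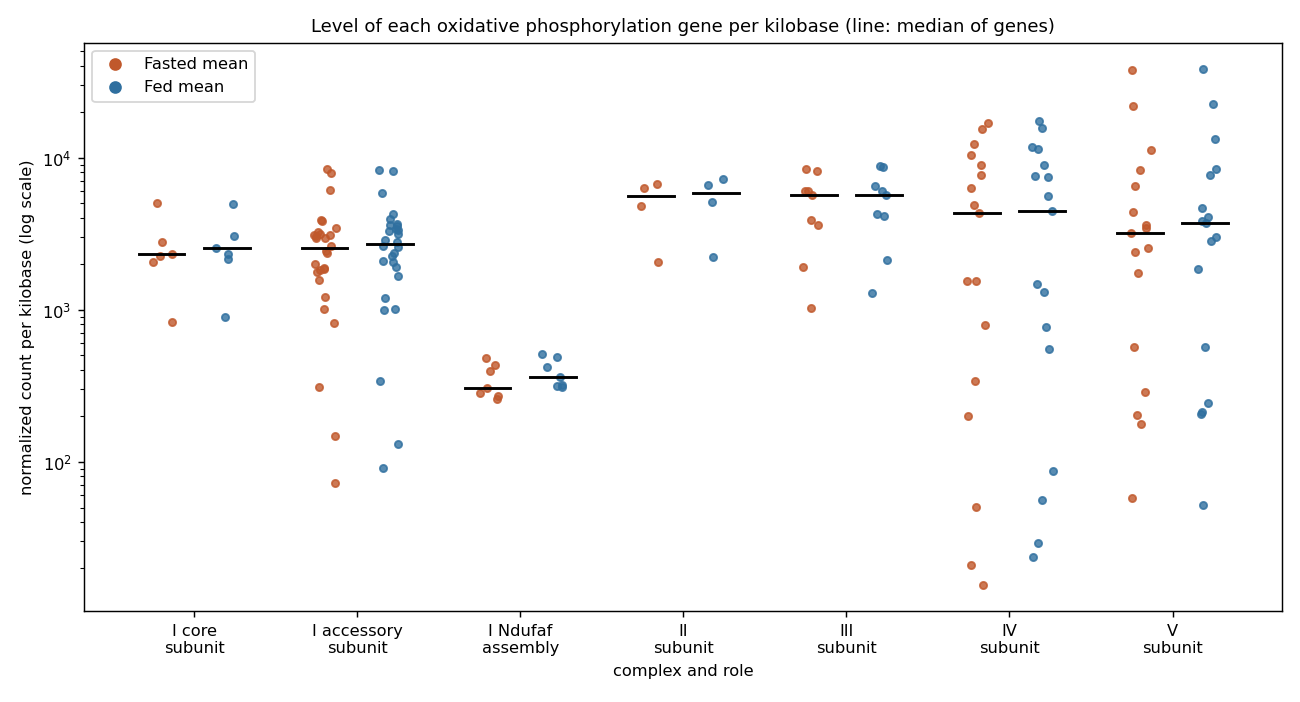
Mean normalized count per kilobase of 88 tested members in fasted (left of each pair) and fed (right) kidneys, by complex and role, on a log axis, with the median over all tested members of a role as a black line. Complexes IV and V hold the lowest and the highest of the tested members, from 22.5 for Cox4i2 to 38229.8 for Atp5b over the 9 libraries, and the Ndufaf genes form a narrow low group.

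In complex I, 1 of the 35 tested subunits was called, and the median log2 change was -0.050 over the 7 core and -0.10 over the 28 tested accessory subunits. Without Fed 5 these medians were -0.078, with 7 of 7 core subunits below 0, and -0.17, with 23 of 28 accessory subunits below 0. Ndufa8 (chr2:36036326-36049406, minus strand, GRCm38), an accessory subunit with twin cysteine motifs that sits on the intermembrane space side, had 1502, 1802, 1613 and 1528 normalized counts in the fasted libraries and 2082, 1977, 2445, 1967 and 1749.6 in the fed libraries. Fed 3 was the highest, and the groups overlapped only because Fasted 2 lay above Fed 5. Its log2 change was -0.34 (SE 0.094, adjusted p = 0.0422). Among the fits with 1 library left out, those without Fasted 2 or Fed 5 kept the call. Each of the other 7 libraries ended it when left out, at adjusted p values of 0.0504 (Fed 3) up to 0.125 (Fasted 4). Ndufa11, a membrane-arm subunit, had the next smallest p among accessory subunits, with 940.3, 1125, 973 and 937 normalized counts in fasted and 1313, 1381, 1092, 1369 and 1020.5 in fed libraries and a log2 change of -0.31 (SE 0.10, adjusted p = 0.0855). Without Fed 5 it passed (-0.37, adjusted p = 0.0287). None of the 7 core subunits passed. Ndufv1, which binds NADH, averaged 8364 ± 401 in fasted and 8228 ± 782 in fed kidneys (SD, n = 4 and 5). Its log2 change was 0.028 (SE 0.079, adjusted p = 0.860). Ndufab1, the acyl carrier protein bound to complex I, had 265, 244, 252 and 253 normalized counts in fasted and 313, 308, 392, 276 and 285 in fed libraries. All fasted values lay below all fed values, and the log2 change was -0.30 (SE 0.11, adjusted p = 0.0943). The core subunits with the smallest p were Ndufs1, the largest iron-sulphur subunit, at -0.12 (SE 0.086, adjusted p = 0.420), and Ndufs3 at -0.091 (SE 0.090, adjusted p = 0.558), of whose transcript 75.7% has a near-identical copy.

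The Ndufaf assembly factors had the lowest median of the role groups. All 7 had a log2 change below 0, with a median of -0.22, and 0 of 7 passed the adjusted threshold, whereas 3 had an unadjusted p under 0.05. Without Fed 5 the median was -0.25, with 6 of 7 below 0 and 1 called lower, Ndufaf1 (-0.30, adjusted p = 0.0345). Ndufaf5, which hydroxylates an arginine of Ndufs7 during assembly, had 330.2, 269, 315 and 286 normalized counts in the fasted libraries and 415, 347, 356, 377 and 360.1 in the fed libraries. Its groups did not overlap, and its log2 change of -0.31 (SE 0.090) had an adjusted p of 0.05002, just above the threshold. It passed with a pseudocount of 0.5 (adjusted p = 0.0498), with TMM scaling (0.04996), with only genes that average 50 normalized counts or more (0.0431) and in DESeq2 on recovered reads (0.0258). Ndufaf4, an early assembly factor, had 1092, 1175, 1166 and 991 normalized counts in fasted and 1524, 1253, 1222, 1329 and 1189.6 in fed libraries. Here too every fasted library lay below every fed library, although Fed 5 exceeded the highest fasted library by little, and the log2 change was -0.23 (SE 0.085, adjusted p = 0.104). Ndufaf1, which works in the assembly of the membrane arm, was at -0.24 (SE 0.090, adjusted p = 0.107), while Ndufaf7, a mitochondrial methyltransferase, was at -0.10 (SE 0.076, adjusted p = 0.444) and Ndufaf6 at -0.0091 (SE 0.081, adjusted p = 0.958). The level of the 7 genes summed per kilobase was 2423 ± 27.6 in fasted kidneys and 2724 ± 155 in fed kidneys (SD, n = 4 and 5). The sums ran from 2399 to 2456 in fasted libraries and from 2529.7 to 2959 in fed libraries, so that the groups did not overlap.

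All 4 subunits of complex II had a log2 change below 0, and 0 of 4 passed the test, with 0 at an unadjusted p under 0.05. Their median was -0.085, and -0.14 without Fed 5. Sdha, the flavoprotein that oxidises succinate, had 18658, 20085, 19422 and 19154 normalized counts in the fasted libraries and 21128, 20879, 21317, 22837 and 19326 in the fed libraries. Fed 5 lay within the fasted range and the other 4 fed libraries above it. This gave a log2 change of -0.12 (SE 0.069, adjusted p = 0.280). Sdhb, the iron-sulphur subunit, was at -0.052 (SE 0.087, adjusted p = 0.748), and Sdhd, a membrane anchor, at -0.087 (SE 0.066, adjusted p = 0.436). The median SE in complex II was 0.0783 on the log2 scale.

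In complex III, 1 of 9 genes was called and 7 had a log2 change below 0, with a median of -0.11. Without Fed 5 the median was -0.19 and all 9 were below 0. Uqcrq (chr11:53427922-53430831, minus strand), a small subunit needed for a stable complex and known as the ubiquinone-binding protein QP-C, had 1509, 1743, 1521 and 1442 normalized counts in the fasted libraries and 2172, 1942, 2068, 1896 and 1662 in the fed libraries. All fed libraries but Fed 5 lay above the fasted ones, and Fed 5 lay below Fasted 2 alone. The change on the log2 scale was -0.32 (SE 0.086, adjusted p = 0.0356), and without Fed 5 it was -0.38 (adjusted p = 0.0111). Leaving out any library but Fasted 2 or Fed 5 ended the call, at adjusted p values of 0.0531 (Fed 4) up to 0.115 (Fasted 4). Cyc1, the cytochrome c1 that hands electrons to cytochrome c, had 5012, 6017, 5622 and 5235 normalized counts in fasted and 6303, 6901, 6059, 6435 and 5658 in fed libraries, with a log2 change of -0.20 (SE 0.076, adjusted p = 0.123). Uqcrfs1, the Rieske iron-sulphur protein, was at -0.11 (SE 0.10, adjusted p = 0.543), and the small subunits Uqcrh and Uqcr10 were at -0.090 (SE 0.11, adjusted p = 0.635) and -0.032 (SE 0.11, adjusted p = 0.886).

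Complex IV held 3 of the 5 called genes, in both directions, and its median log2 change was 0.00054 over 17 tested genes, 8 of them below 0. Its sign rested on single libraries: the median was -0.059 without Fed 5, with 13 of 17 below 0, -0.062 without Fed 3 and 0.057 without Fed 2. It also holds most of the tissue isoforms, which replace a widely expressed partner in muscle, testis or hypoxic cells. Cox6b2 (chr7:4751792-4753094, minus strand) is the isoform of Cox6b1 that is best known from testis. It had 107, 172, 69.1 and 122 normalized counts in the fasted libraries and 46.1, 45.1, 55.3, 51.5 and 57.7 in the fed libraries. Every fasted library was above every fed library, and the fasted libraries were spread widely, with Fasted 2 highest and Fasted 3 lowest. The log2 change was 1.12 (SE 0.22, adjusted p = 0.0104), a fold of 2.17, and the call held under all 19 alternatives run, with adjusted p between 4.06e-05 and 0.0393. Its partner Cox6b1 averaged 5538 ± 224 in fasted and 5569 ± 1237 in fed kidneys. Per kilobase, Cox6b2 made up 2.21% ± 0.878 of the pair in fasted and 1.02% ± 0.342 in fed kidneys (SD, n = 4 and 5). The shares overlapped, since Fasted 3 was below Fed 3 and Fed 5. The 4 testis germ cell markers Prm1, Prm2, Tnp1 and Ldhc summed to at most 2.79 normalized counts in fasted and at most 30.3 in fed libraries, and Prm1 and Prm2 were at 0 in all 4 fasted libraries. The upstream neighbour on the same strand, Fam71e2, had at most 2.15 normalized counts in any library.

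Cox7a1 (chr7:30184144-30186078, plus strand), the isoform of Cox7a2 that predominates in heart and skeletal muscle and in brown fat, was lower in fasted kidneys. It had 158, 121, 125 and 129 normalized counts in the fasted libraries and 254, 267, 210.5, 199 and 155 in the fed libraries. Fed 5 lay just under Fasted 1, and the other 4 fed libraries lay above all fasted ones. Its log2 change was -0.68 (SE 0.16, adjusted p = 0.0209), a fold of 0.623, and -0.80 without Fed 5 (adjusted p = 0.00480). The call was lost without Fasted 2 (adjusted p = 0.0577), Fasted 3 (0.0578), Fasted 4 (0.0611) or Fed 1 (0.0536). Per kilobase Cox7a1 made up 4.23% ± 0.630 of the sum of Cox7a1 and Cox7a2 in fasted kidneys and 6.97% ± 1.23 in fed kidneys, and every fasted share, between 3.70% and 5.15%, was below every fed share, between 5.72% and 8.91%. Markers of the tissues that use Cox7a1 were low but not all near 0. The 3 brown adipocyte markers summed to between 6.22 and 31.65 normalized counts in fasted and between 0.995 and 113 in fed libraries. The highest sum was in Fed 2, which also had the most Cox7a1, and came almost wholly from Elovl3 (111), while Ucp1, the defining gene of brown fat, had at most 1.92 in any library. The 6 striated muscle markers summed to between 2.79 and 6.43 in fasted and between 1.99 and 20.4 in fed libraries. The cardiac muscle list summed to between 12.1 and 35.6 in fasted and between 15.6 and 35.5 in fed libraries, mostly from Myh6. The part of such cells in the Cox7a1 values was not tested.

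**Figure D3:**
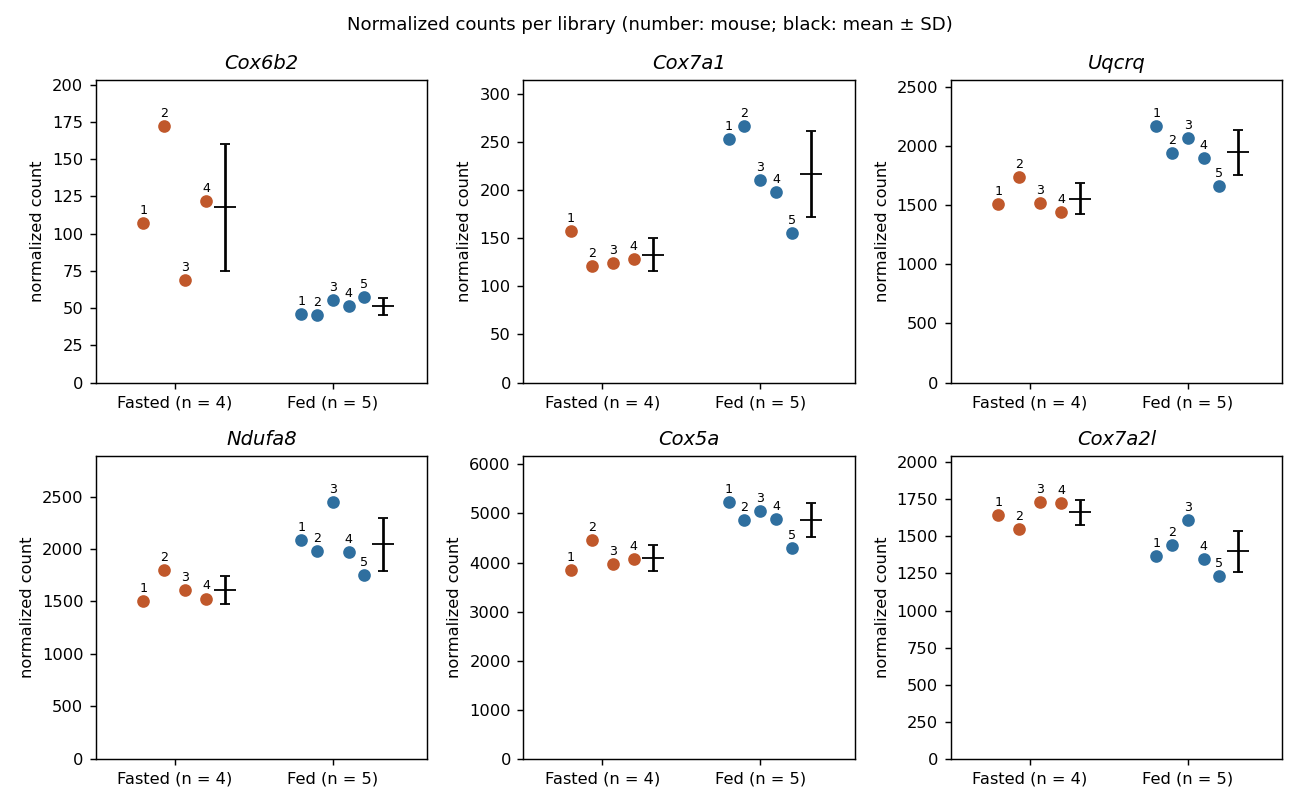
Normalized counts of the 5 called genes and of Cox7a2l in each fasted (left) and fed (right) library, numbered by mouse, with the mean and SD in black; every axis starts at 0. Cox6b2 lies between 69.1 and 172 in fasted libraries and between 45.1 and 57.7 in fed libraries, and in Cox7a1, Uqcrq, Ndufa8 and Cox5a the lowest fed library is Fed 5.

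Cox5a (chr9:57521274-57532426, plus strand), a matrix-facing subunit with no tissue isoform, had 3848, 4463, 3971 and 4074 normalized counts in the fasted libraries and 5229, 4874, 5044, 4892 and 4304 in the fed libraries. The groups overlapped through Fasted 2 and Fed 5 alone. This gave a log2 change of -0.25 (SE 0.071, adjusted p = 0.0456), and without Fed 5 it was -0.29 (adjusted p = 0.0148). Its call ended when any library but Fasted 2 or Fed 5 was left out, at adjusted p values of 0.0695 (Fed 3) up to 0.125 (Fasted 1). It also ended when genes with few reads were kept in the test (0.0572). Of its transcript, 42.0% matches a transcript of another annotated gene, and 41.7% lies in exons of a gene that overlaps it. Cox7a2l, a Cox7a2-like gene that has been linked to supercomplexes of complexes III and IV, had 1645, 1546, 1729 and 1724 normalized counts in fasted and 1367, 1439, 1610.2, 1346 and 1230.4 in fed libraries. Whether its product acts so in this strain cannot be read from these counts. Of the fed libraries only Fed 3 exceeded a fasted library in Cox7a2l. Its log2 change of 0.25 (SE 0.079, adjusted p = 0.0663) passed without Fed 3 (0.30, adjusted p = 0.0189).

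The widely expressed members of the isoform sets did not pass the test. Cox4i1 was at -0.037 (SE 0.077, adjusted p = 0.800), Cox6a1 at -0.13 (SE 0.094, adjusted p = 0.418), Cox6b1 at 0.021 (SE 0.14, adjusted p = 0.945), Cox7a2 at 0.069 (SE 0.14, adjusted p = 0.797), Cox8a at 0.0024 (SE 0.14, adjusted p = 0.995) and Ndufa4 at 0.10 (SE 0.16, adjusted p = 0.723). The sign of Cox6b1, Cox7a2, Cox8a and Ndufa4 turned below 0 without Fed 3, where Cox8a was at -0.11. That of Cox6b1, Cox7a2 and Cox8a also turned without Fed 5, where Cox6b1 was at -0.076. Their partners were low. Cox4i2, the hypoxia isoform, averaged 15.5 ± 2.96 in fasted and 17.4 ± 6.30 in fed kidneys, and Ndufa4l2, also linked to hypoxia, averaged 47.3 ± 8.74 in fasted and 52.6 ± 12.5 in fed kidneys. Cox6a2, the muscle isoform of Cox6a1, had between 8.89 and 13.02 normalized counts in fasted libraries and 21.6, 23.9, 17.1, 30.1 and 5.97 in fed libraries. Fed 5 was the lowest of all 9 libraries and the other 4 fed libraries were above all fasted ones. Its log2 change of -0.71 (SE 0.39, adjusted p = 0.279) became -1.06 without Fed 5 (adjusted p = 0.0207). Cox8b, the muscle isoform of Cox8a, had 21 reads in all 9 libraries together and Cox8c had 0.

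In complex V, 0 of the 17 genes passed the adjusted threshold, 15 had a log2 change below 0 with a median of -0.086 (-0.12 without Fed 5), and 3 had an unadjusted p under 0.05, all of them lower. The catalytic subunits had changes near 0. Atp5b averaged 72415 ± 2010.0 in fasted and 73915 ± 8711 in fed kidneys, with a log2 change of -0.022 (SE 0.11, adjusted p = 0.924), and Atp5a1 was at -0.019 (SE 0.10, adjusted p = 0.929). Atp5d, the delta subunit of the central stalk, came closest to the threshold, with 4294, 5273, 4935 and 4885 normalized counts in fasted and 5859.7, 6212, 5895, 5753 and 5154 in fed libraries. Only Fed 5 fell below a fasted library. The change on the log2 scale was -0.25 (SE 0.076, adjusted p = 0.0545), and -0.29 without Fed 5 (adjusted p = 0.0237). The c subunit of the rotor ring comes from 3 genes that give the same mature protein. Atp5g3 supplied most of this transcript, 97.9% ± 0.233 per kilobase in fasted and 98.1% ± 0.261 in fed kidneys (SD, n = 4 and 5). These shares depend on the transcript lengths used, 4715 bases for Atp5g1 and 723 for Atp5g3. In normalized counts Atp5g1 averaged 836 in fasted and 973 in fed kidneys, against 8063 and 9626 for Atp5g3. Of the Atp5g2 transcript 88.2% has a near-identical copy, so its level is uncertain. Atp5j, the coupling factor F6 of the peripheral stalk, had 1999, 1935, 1948 and 1909 normalized counts in fasted and 2487, 2215, 3094, 2252 and 2077 in fed libraries. The groups did not overlap, and the log2 change was -0.30 (SE 0.10, adjusted p = 0.0839), or -0.35 without Fed 5 (adjusted p = 0.0427). Atp5g3 itself was at -0.26 (SE 0.086, adjusted p = 0.0793), and passed without Fasted 2 (0.0308), without Fed 5 (0.0388) and in DESeq2 (0.0401). Atp5g1 was at -0.20 (SE 0.12, adjusted p = 0.297) and Atp5g2 at 0.18 (SE 0.21, adjusted p = 0.611).

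The members varied more between the fed than between the fasted mice. Over the members, the median log2 difference from the fed mean was -0.12, -0.057, -0.044 and -0.12 in the fasted libraries, against 0.12, 0.12, -0.095, 0.062 and -0.22 in the fed libraries. Fed 1, Fed 2 and Fed 4 were above every fasted library, Fed 3 lay among the fasted libraries and Fed 5 below them all. Over all genes tested the same medians lay between -0.0030 and 0.0056. Fed 5 was the lowest fed library in 59 of 89 members (66.3%), against 22.6% of all genes tested, and Fed 3 in 24. The coefficient of variation between mice was smaller in the fasted than in the fed group for 83 of 89 members (93.3%), against 64.5% of all genes. Its median over the members was 6.05% in fasted and 13.5% in fed mice, and 10.2% in fed mice without Fed 5, while over all genes it was 9.57% in fasted and 12.3% in fed mice.

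The sums per kilobase also varied more between the fed than between the fasted mice. In complex IV the sum was 91904 ± 1534 in fasted kidneys and 94710.0 ± 13592 in fed kidneys, and in complex V it was 108314 ± 3058 in fasted and 115667 ± 12216 in fed kidneys (SD, n = 4 and 5). Complex I subunits summed to 98392 ± 4071 in fasted and 103264 ± 11088 in fed kidneys. With all libraries the difference between the group means was smaller than the SD of the fed mice in each of these. Without Fed 5 the fed sums were 98752 ± 11722 in complex IV, 120474 ± 6697 in complex V and 107338 ± 7296 in complex I (SD, n = 4). The fasted means then lay below the fed means by more than that SD in complexes I and V and by less in complex IV. They also lay below by more than that SD in complexes II and III. There the sums were 19884 ± 734 in fasted and 21807 ± 1033 in fed kidneys for complex II. For complex III they were 44814 ± 1274 and 49496 ± 3834 (SD, fed without Fed 5).

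Without Fed 5, 18 members were called lower in fasted kidneys, where 6.83% of all genes tested were called lower, and 1 was called higher (Cox6b2), where 6.13% of all genes were called higher. The median over the members was -0.14, beside 0.0015 over all genes, and 77 of 89 members had a log2 change below 0. By role, the 18 comprised 8 accessory subunits of complex I, 1 Ndufaf factor, 1 gene of complex III, 3 of complex IV and 5 of complex V, and 0 core subunits of complex I and 0 of complex II. Among them were the small subunits Atp5e (-0.36, adjusted p = 0.00900) and Atp5k (-0.38, adjusted p = 0.00842) of ATP synthase and Ndufb7 (-0.37, adjusted p = 0.00564) and Ndufc1 (-0.40, adjusted p = 0.0105) of complex I. All 4 genes called lower with every library included were among the 18. Fed 5 was singled out after the data were seen, so the added calls are a description. Without Fed 3 and Fasted 1, the libraries highest in Rn45s, 1 member was called lower and 2 were called higher. The summed proximal tubule markers were also lowest among the fed mice in Fed 5. Their sum was 579680, 548700, 621080 and 553420 normalized counts in Fasted 1 to 4 and 709640, 718690, 650940, 771660 and 561130 in Fed 1 to 5, so that Fed 5 lay within the fasted range and the other fed libraries above it. Lrp2, Slc34a1 and Slc27a2 made up most of each sum, and their log2 changes were -0.47, -0.58 and 0.28, so the sum does not describe all markers alike. Of the 11 markers 7 had a log2 change below 0. With all libraries 1 was called lower (Slc34a1, the phosphate transporter) and 1 higher (Slc13a3, a dicarboxylate transporter), with a median of -0.048. Without Fed 5, 4 were called lower and 1 higher, and the median was -0.18. The 4 markers of the thick ascending limb summed to between 139880 and 172750 in fasted and between 111140 and 149280 in fed libraries. For the 3 markers of the distal convoluted tubule the sums were 26466 to 32882 in fasted and 26490 to 35845 in fed libraries. The part of the share of any of these tubule cells in the members' values was not tested.

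**Figure D4:**
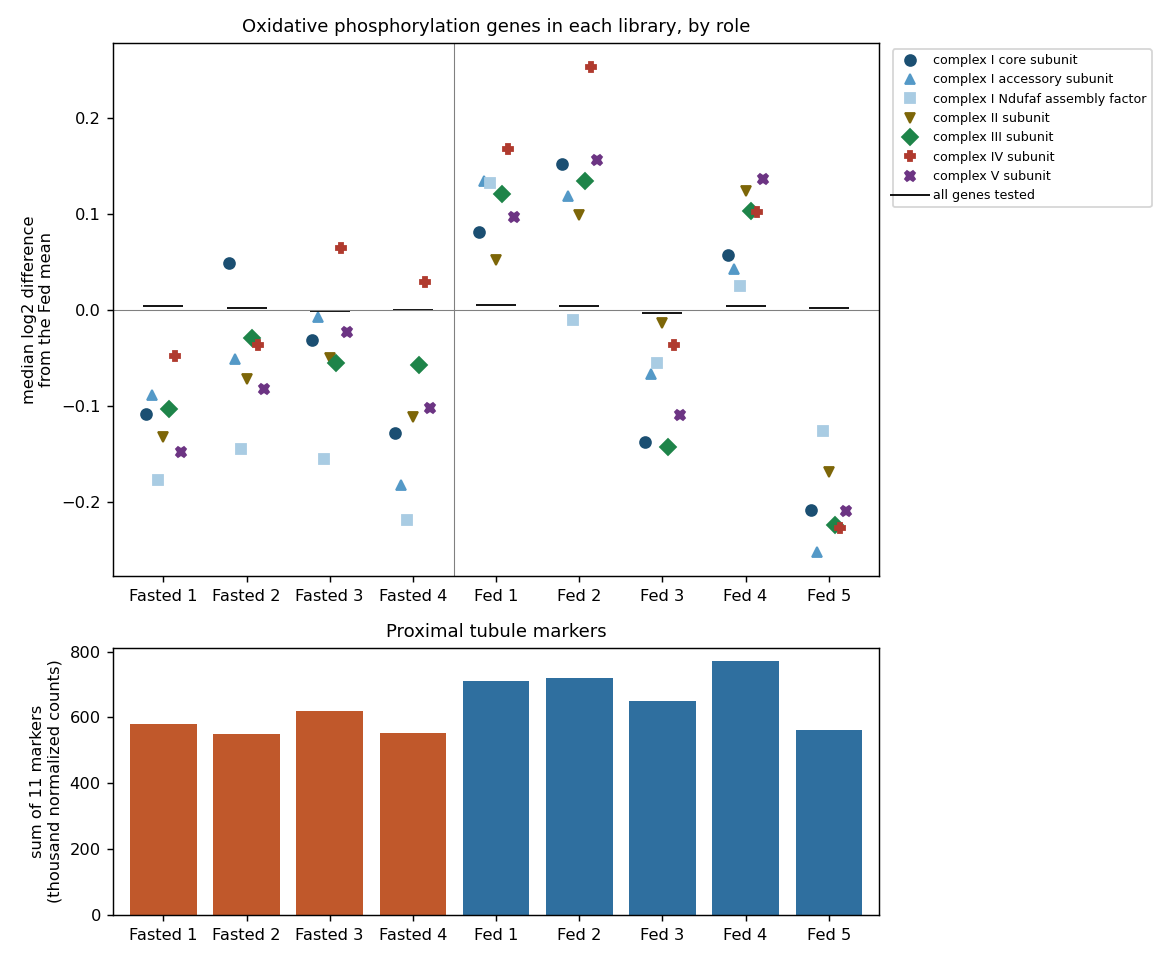
Upper panel: for each library, the median over the genes of a role of the log2 difference from the mean of the fed libraries, with all genes tested as black bars. Lower panel: the sum of 11 proximal tubule markers in normalized counts, drawn in units of 1000; Fed 5 is the lowest fed library in both, with a median over all members of -0.22 and a sum of 561130 normalized counts.

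The authors' deposited table gave more calls among the same genes than limma did, and the same calls as the DESeq2 fit run here on the recovered reads. There, 10 members of the authors' deposited table had an adjusted p under 0.05 and were lower in fasted kidneys (7.89% of all genes with an adjusted p), and 2 were higher (8.14%). The 4 genes called lower here are among the 10 in the authors' deposited table, and Cox7a2l is the further one that is higher. The authors' deposited table gives Cox6b2 an adjusted p of 2.95e-05, Cox7a1 one of 0.000909 and Uqcrq one of 0.00796, and no other member had one under 0.01 in it.

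**Figure D5:**
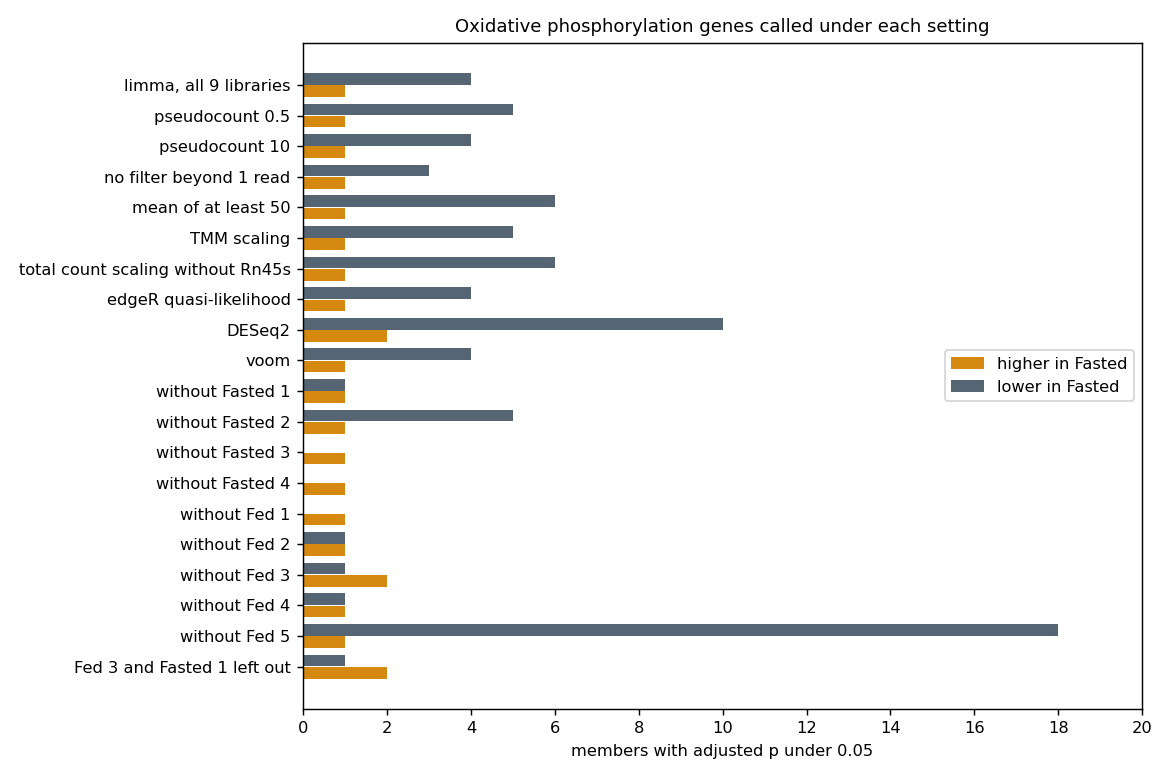
Number of members with an adjusted p under 0.05 that were higher or lower in fasted kidneys, in the fit with all 9 libraries and in 19 alternatives. The number lower runs from 0 to 18, with 18 where Fed 5 is left out, and the number higher is 1 or 2.

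The other genes of the pathway, taken from lists of assembly factors, electron carriers and regulators, gave 3 calls among 71 genes tested, all lower. This is 4.23%, near the 5.25% of all genes tested that were called lower. Of the 8 tested complex I assembly factors outside the Ndufaf names 0 were called, and of 3 for complex II and 5 for complex V likewise 0. Ecsit, a complex I assembly factor, was at -0.28 (SE 0.089, adjusted p = 0.0679), and Timmdc1, another, at -0.23 (SE 0.072, adjusted p = 0.0621). For complex III 1 of 4 was called lower: Bcs1l, the chaperone that inserts the Rieske protein. It had 325, 316, 329 and 322 normalized counts in the fasted libraries and 444, 412, 404, 410.2 and 373 in the fed libraries, with no overlap between the groups, and the log2 change of -0.34 (SE 0.074, adjusted p = 0.0154) held its call under all 19 alternatives. For complex IV 1 of 22 was called lower: Cmc2, at -0.40 (SE 0.11, adjusted p = 0.0426), a call that was lost without Fed 1 (adjusted p = 0.0893), Fed 2 (0.0856) or any single fasted library (0.0640 to 0.108), or when genes with few reads were kept (0.0564). Of the 15 genes for cytochrome c and coenzyme Q synthesis 1 was called lower: Pdss1, which builds the side chain of coenzyme Q, averaged 294 ± 33.9 in fasted and 399 ± 36.8 in fed kidneys with a log2 change of -0.44 (SE 0.10, adjusted p = 0.0200). Its call ended without Fasted 3 (adjusted p = 0.0565), Fasted 4 (0.0669) or Fed 1 (0.0526). Cycs, cytochrome c, had 419, 373, 390.4 and 357 normalized counts in fasted and 559.7, 563, 524, 533 and 335 in fed libraries. Fed 5 was the lowest of all 9 libraries and the other 4 fed libraries were the highest, and the log2 change of -0.36 (SE 0.14, adjusted p = 0.134) became -0.50 without Fed 5 (adjusted p = 0.00302). Of 14 regulators of nuclear respiratory genes 0 were called. Esrra, the nuclear receptor ERRα that drives many of these genes, averaged 2223 ± 349 in fasted and 2789 ± 214 in fed kidneys, with a log2 change of -0.34 (SE 0.10, adjusted p = 0.0516) that passed in 8 of 19 alternatives, among them without Fasted 2 (adjusted p = 0.00960), Fed 3 (0.0492) or Fed 5 (0.0436). Ppargc1a, its coactivator, was at -0.081 (SE 0.092, adjusted p = 0.613). Esrrb, with the next smallest p of the regulators, went the other way at 0.27 (SE 0.11, adjusted p = 0.137). Of the 14 regulators 10 had a log2 change below 0.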

How the data were processed

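RNA-seq of kidney cortex from 4 fasted and 5 fed mice was used. The authors deposited normalized counts per gene, a signal in which each library's reads are divided by a size factor, beside the log2 fold changes, test scores and p-values of their own comparison. Per the submitters' processing notes the tools were FastQC, TopHat2, HTSeq and DESeq2, and the builds named were mm10 and hg19. The strand setting is not given in the sources used here. Each deposited signal value was a whole multiple of what 1 read is worth in its library (within 0.01 reads), so whole read counts could be recovered: 161194 of 161194 values above 0 came out whole.

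Genes that averaged 10 normalized counts or more (15098 of 23420) were tested with limma 3.58.1, with a mean-variance trend, on log2(normalized count + 1), fasted over fed, with Benjamini-Hochberg adjustment and a threshold of 0.05. Adding 1 understates the change of low genes. Alternatives were pseudocounts of 0.5 and 10, filters, scalings, edgeR 4.0.16, DESeq2 1.42.0 and voom on the recovered reads, and libraries left out. edgeR called 1655 genes and DESeq2 2349. The number of replicates limits the precision. Levels per kilobase used GENCODE M21 transcripts (GRCm38) and promoters came from RefSeq. The fits were tested on simulated data. Named are the called members, in each role the 3 highest per kilobase and the 2 with the smallest p, and the tissue isoforms, with called genes and the 2 smallest p of each other list. Of these, Ndufa6, Lyrm7, Cox14, Sdhaf2 and Atpaf1 were not described singly. Ndufab1, Atp5j, Atp5e, Atp5k, Atp5l, Cox7c, Ndufb7, Ndufc1, Ppargc1a and the lowest level of a role were named after their values were seen. 1 member enters the fit and the counts but is not reported here. Members and lists were chosen with earlier results of these data known.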

Additional observations from a re-analysis of the deposited data

Results flagged for a closer look

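A search for single libraries far from the rest of their group, over 60 genes and so 120 groups of 4 or 5 libraries, found 7. Chance alone flags about 1 in 20 groups.

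Fasted 2 stood apart from the other 3 fasted libraries in 4 genes. It was higher in Ndufs3 (972 normalized counts, against 829.6 to 846), in Atp5g3 (9363, against 7591 to 7695) and in Atpaf2, an assembly factor of ATP synthase (616, against 570.1 to 573), and lower in Uqcrh (4053, against 4601 to 4642). Fed 5 stood apart from the other 4 fed libraries in 3 genes, each time below them. It had 3609 normalized counts of Uqcrh (others 4891 to 5254), 11394 of Cox4i1 (others 13373 to 14086) and 335 of Cycs (others 524 to 563). Without Fed 5 the log2 change of Cycs was -0.50, with an adjusted p of 0.00302 in limma.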

How the results depend on the processing

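With all libraries 1656 genes were called. Leaving out 1 library gave 861 to 1956, leaving out Fed 3 and Fasted 1 gave 1068, and DESeq2 gave 2349. Members called higher numbered 2 in DESeq2 and 2 without Fed 3 and Fasted 1, and 1 to 2 with 1 library left out. Members called lower numbered 10 in DESeq2, 1 without Fed 3 and Fasted 1, and 0 to 18 with 1 library left out. Why these counts differ was not tested, apart from the fewer samples where libraries were left out. The median log2 change of each role and the summed levels moved by less than the spread between mice in the alternatives run for them, although the complex IV median, 0.00054 with all libraries, lay between -0.062 and 0.057 and so on either side of 0. Leaving out 1 library of 4 or 5 can hardly move a median by more than that spread, so those alternatives could not show that the medians hold. Without Fed 5 the median went from -0.11 to -0.19 in complex III and from -0.10 to -0.17 in complex I accessory subunits. Keeping genes with few reads ended the calls of Cox5a (adjusted p = 0.0572) and Cmc2 (0.0564). Summed levels were also computed on union exon length, an alternative chosen after seeing the data, and were not run with TMM or in the count models. Cox6b2 and Bcs1l kept their calls in all 19 alternatives. The sign turned in 14 named genes, none of them called, with a log2 change of at most 0.105 in size and adjusted p of at least 0.572. Without Fed 3 and Fasted 1 it was -0.088 for Cox8a, -0.044 for Ndufa4, -0.069 for Cox6b1, -0.019 for Cox7a2, 0.096 for Cox4i2 and 0.00091 for Ndufa4l2. Cox8a was -0.0095 with total count scaling, -0.024 in edgeR and -0.022 in DESeq2, and Cox6b1 was -0.0087 in edgeR and -0.0069 in DESeq2. With 1 library left out the ranges were -0.11 to 0.067 for Cox8a, -0.076 to 0.10 for Cox6b1, -0.036 to 0.14 for Cox7a2, -0.028 to 0.17 for Ndufa4, -0.25 to 0.025 for Cox4i2, -0.082 to 0.017 for Atp5b, -0.075 to 0.015 for Atp5a1, -0.10 to 0.028 for Uqcr10, -0.12 to 0.0066 for Ndufb8, -0.0032 to 0.073 for Ndufb9, -0.024 to 0.071 for Ndufv1, -0.066 to 0.017 for Ndufaf6 and -0.046 to 0.094 for Acn9. No paired analysis was possible because the labels give no shared numbers. With 4 and 5 mice, changes that did not pass the adjusted threshold could not be told from 0, also where they were larger than the SE given beside them.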
